A study of Homo sapiens with 24 samples.

Results

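The short arm of chromosome 16 held 824 of the 32666 sites in the authors' 2 deposited tables of chromatin immunoprecipitation followed by sequencing (ChIP-seq). Of these, 674 came from the table of Rbap46 against input and 150 from the table of H3K9ac in shControl against shHAT1 cells. A site was counted as a member when it lay on chromosome 16 with a start under position 36000000 of hg19, the build named in the submitters' processing notes. The long arm, taken from position 46000000 on, held 695 sites, 631 in the first table and 64 in the second. No site of either table lay between the 2 limits, and the distance from the last short arm site to the first long arm site was 12.8 Mb. The arm was chosen with its density of sites already known, and a table holds only sites that passed the authors' false discovery rate (FDR) limit. Densities, levels and differences are therefore descriptions of selected sites and were not tested.

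The cells are labelled hTert-HME1, an established mammary epithelial line immortalised with telomerase, and were grown in mammary epithelial medium. The Rbap46 table compares 2 libraries made with an Rbap46 antibody with 2 libraries of input chromatin, all from untreated cells. The H3K9ac table compares 3 libraries of cells with a control short hairpin RNA (shControl) with 3 libraries of cells with a short hairpin RNA against HAT1 (shHAT1). The labels do not say whether the libraries of a group came from separate cultures or clones, so the authors' p-values measure the spread between these libraries, which may be technical.

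HAT1 is a histone acetyltransferase that acts on newly made histone H4 before it is placed on DNA. Rbap46, the product of RBBP7, is a histone-binding chaperone that forms the HAT1 enzyme complex and is also found in other chromatin complexes such as NuRD and PRC2. H3K9ac, acetylation of lysine 9 of histone H3, is a mark of active promoters and enhancers. The short arm of chromosome 16 is known for a gene-rich tip, with the alpha-globin genes, the tumour suppressor TSC2 and the histone acetyltransferase CREBBP, for gene-poor stretches in its middle, and for blocks of recent segmental duplication. A second gene-rich stretch towards the centromere carries chromatin genes such as SRCAP, SETD1A and KAT8.

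An annotation of hg19 was not used here, so sites are named by position and not by gene, and their sequences were not used here. A RefSeq gene table of another build, GRCh38.p14, gave the order of genes only. All 44 listed symbols of the arm matched it, as 43 genes, since ZNF434 is an older name of ZSCAN32. The globin genes HBZ, HBM, HBA2, HBA1 and HBQ1 stood at places 7 to 11 of the protein-coding genes counted from the tip. TSC2 and its neighbour PKD1 followed at places 102 and 103, a group of zinc-finger genes from ZSCAN10 to ZNF597 at places 147 to 159, and CREBBP at place 167. The sperm chromatin genes TNP2, PRM3, PRM2 and PRM1 stood side by side at places 218 to 221. SRCAP, SETD1A and KAT8 came last of these, at places 428, 438 and 448 of the 476 protein-coding genes before the widest gap in the order, which was taken as the centromere.

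All levels come from the authors' deposited tables and were read as log2 mean normalized read concentrations of a group. No spread between libraries can therefore be given, and the depth per library is unknown. The 2 tables were normalized separately and their levels are not compared with each other. In the Rbap46 table, the median input level was 7.48 at the 184 sites from 19 to 24 Mb of chromosome 22 and 5.50 at the 571 others of that chromosome. The shControl H3K9ac level had a median of 9.27 over 4 sites there and 9.42 over 41 other sites, again from the authors' deposited table. It is the level of a mark at the few sites listed as changed and not of input chromatin, so these are unlike measures. Whether the libraries of both tables come from cells with the same karyotype was not tested, which bears on every statement that joins the tables. On chromosome 16 the median input level was 5.95 on the short arm and 6.03 on the long arm in the authors' deposited table.

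Rbap46 sites lay in 2 dense stretches with a sparse middle. The first 5 Mb from the tip held 265 sites, or 53.0 per Mb, and the 4 Mb from 28 to 32 Mb held 141, or 35.2 per Mb. The 23 Mb between them held 260 sites, or 11.3 per Mb. The last 8 sites lay beyond 32 Mb, and nothing was listed from 34 to 36 Mb. The fullest 1-Mb window was that at the very tip (72 sites). Next came the windows from 2 to 3 Mb (65 sites), from 3 to 4 Mb (55 sites) and from 30 to 31 Mb (54 sites). In the count over all chromosomes the tip window ranked 11 of 2285 windows with a site, where the fullest held 106. The longest stretches without an Rbap46 site were 1.58 Mb, ending at 6732075, and 1.41 Mb, ending at 8137837, on either side of the only site in the window from 6 to 7 Mb. Of the 36 windows, 4 had no Rbap46 site.

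H3K9ac sites followed the same outline and were more concentrated at the tip. The first 5 Mb held 75 of the 150 sites, or 15.0 per Mb, against 2.22 per Mb from 5 to 28 Mb and 6 per Mb from 28 to 32 Mb. Beyond 32 Mb the count was 0. The 5 windows from the tip held 14, 12, 21, 18 and 10 sites in this order, and all 5 ranked within the first 12 of the 1003 windows with an H3K9ac site on any chromosome. A further local peak of 8 sites lay from 11 to 12 Mb. The longest stretch without an H3K9ac site was 3.57 Mb, from 5147877 to 8715469, and it spans both of the longest stretches without Rbap46. Over the 36 windows, the counts of both tables had a Spearman correlation of 0.90, given as a description, since both count sites in the same windows and depend on how many sites can be called there.

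**Figure D1:**
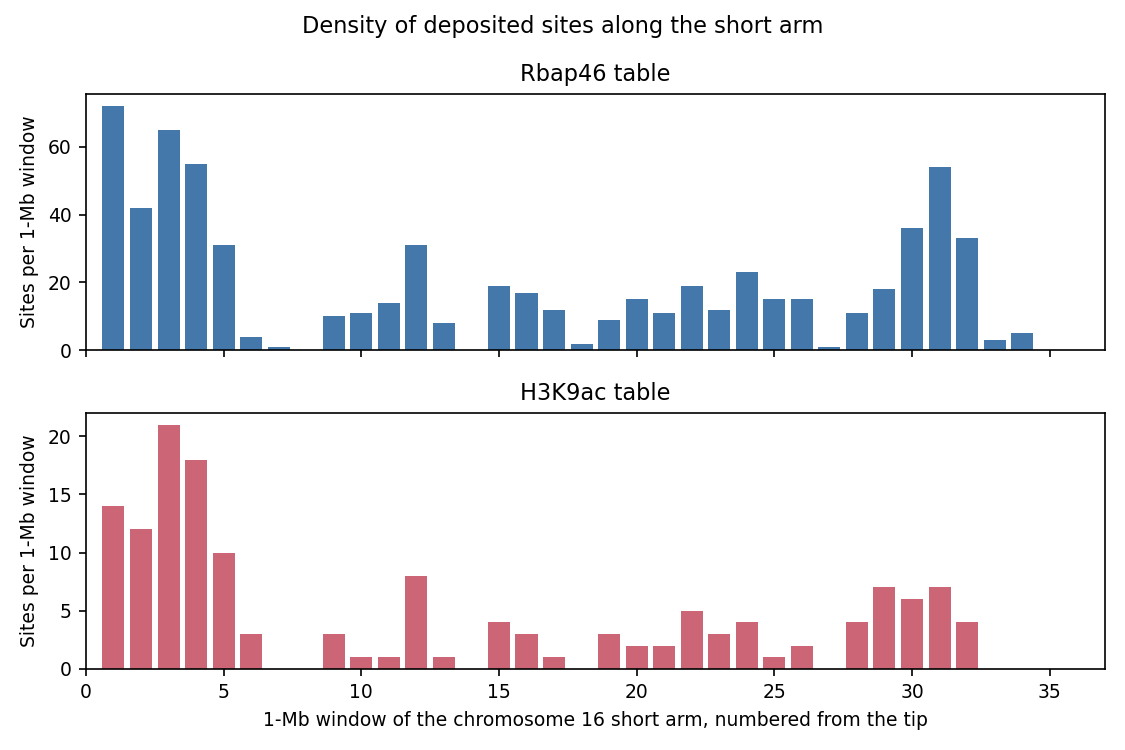
Number of sites per 1-Mb window along the short arm, for the Rbap46 table (top) and the H3K9ac table (bottom), with windows numbered from the tip. Rbap46 sites are dense in the first 5 windows and again in windows 29 to 32, while H3K9ac sites peak at 21 in the third window and are at 0 beyond window 32.

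The H3K9ac sites of the tip formed runs. With neighbours up to 100 kb apart joined, the short arm had 59 runs, of which 25 were single sites and 9 held 5 sites or more. These 9 runs together held 59 sites, and 8 of them lay in the first 4 Mb. The long arm had 44 runs, none with more than 4 sites. The median gap between neighbouring H3K9ac sites was 69.7 kb on the short arm and 206 kb on the long arm. Runs at this joining distance thus restate the density, and clustering beyond it was not tested. The longest run, from 2478817 to 2827744, held 9 sites, and 8 of the 9 overlapped an Rbap46 site. Its shHAT1 minus shControl values lay between -1.02 and -0.54 in the authors' deposited table, with a median of -0.78. Another run, from 2174752 to 2318120, held 7 sites whose differences in the authors' deposited table ran from -1.46 to -0.59 around a median of -1.08. The run of 5 sites from 3030090 to 3074423 had shControl levels between 9.19 and 10.35 in the authors' deposited table, and their median difference was -0.94. The one run of 5 sites or more outside the tip lay from 11836181 to 12009556, and the median difference of its 7 sites in the authors' deposited table was -0.96. The remaining runs of 5 sites or more had median differences of -0.83, -0.71, -0.72, -0.76 and -0.91, and all sites of the arm one of -0.79, by the authors' deposited table.

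Set against Rbap46 sites, changed H3K9ac sites were frequent on this arm. Chromosome 16 had 214 H3K9ac sites, the highest count of the 23 chromosomes, next to 213 on chromosome 1, although it ranked 12 by Rbap46 sites with 1305. For every 100 Rbap46 sites, the short arm had 22.3 H3K9ac sites, the long arm 10.1 and all other chromosomes together 6.78. Chromosome 12 was the next after chromosome 16, with 11.1 against 16.4. Within the short arm the number was 28.3 in the first 5 Mb, 19.6 from 5 to 28 Mb and 17.0 from 28 to 32 Mb, each above the number for the other chromosomes. Per Mb of the stretch covered by sites, the short arm had 4.48 H3K9ac sites and the long arm 1.46, while for Rbap46 the densities were 20.1 and 14.4. With neighbours within 10 kb counted once, H3K9ac sites numbered 119 on the short arm and 59 on the long arm. Rbap46 sites then numbered 394 and 382. Per 100 protein-coding genes in the order of GRCh38.p14, the short arm had 31.5 H3K9ac sites and the long arm, with 374 genes, 17.1. For Rbap46 this order was turned, with 142 sites per 100 genes on the short arm and 169 on the long arm.

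**Figure D2:**
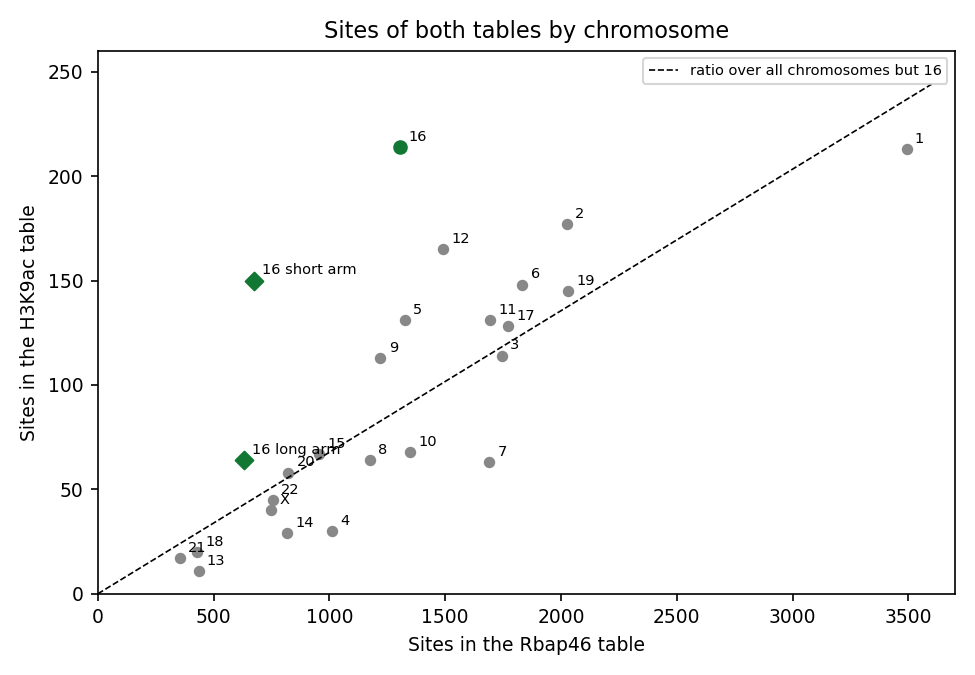
Sites in the H3K9ac table against sites in the Rbap46 table for each chromosome, with chromosome 16 and its arms in green (diamonds mark the arms) and a dashed line at the ratio over all chromosomes but 16. The short arm, at 674 and 150 sites, lies far above the line, and the long arm, at 631 and 64, lies closer to it.

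At 671 of the 674 sites of the arm, Rbap46 was above input. Over all sites the authors tested, 37.6% were called above input and 0.0619% below. How many sites were tested on the arm was not analysed here, so the count on the arm cannot be read against these shares. By the authors' deposited table, the arm's median level was 6.99 for Rbap46 and 5.95 for input. The median Rbap46 minus input was 1.08, a 2.11-fold enrichment, with quartiles of 0.87 and 1.30. At least a 2-fold enrichment was reached by 407 sites. Over all tested sites the share was 21.9%, which this count cannot be read against either. Of listed sites, 60.8% on the short arm, 59.6% on the long arm and 58.0% elsewhere differed at least 2-fold in either direction. Enrichment of at least 2 on the log2 scale was seen at 11 sites of the short arm.

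The 3 sites of the arm with the largest Rbap46 fold stood in the first 6 Mb. For the site from 1401678 to 1402178, the authors' deposited table lists 8.72 for Rbap46 and 6.22 for input, an enrichment of 2.50 on the log2 scale at FDR 3.86e-42. For that from 5083636 to 5084136 the authors' deposited table lists 8.30 and 5.85, an enrichment of 2.46 at FDR 1.82e-30. The site from 1660569 to 1661069 is listed in the authors' deposited table at 8.68 and 6.38, enriched by 2.31 at FDR 2.54e-38. Of these 3 sites, the second and the third overlapped a changed H3K9ac site and the one with the largest fold did not. In the window at the tip, the site with the smallest p-value lay from 771021 to 771521, listed in the authors' deposited table at 8.58 for Rbap46 and 6.45 for input with FDR 7.02e-30.

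The sites with the highest overall concentration were not those with the largest fold. The highest, from 21531385 to 21531885, stood at 8.84 for Rbap46 and 7.07 for input, enriched by 1.77 at FDR 9.38e-26, according to the authors' deposited table. The next, from 1876841 to 1877341, had the highest Rbap46 level of the arm, 8.85 over an input of 6.75, and the authors' deposited table puts its enrichment at 2.10 with FDR 3.76e-36. The third, from 23568470 to 23568970, stood at 8.77 and 6.98, and the authors' deposited table puts its enrichment at 1.80 with FDR 1.82e-27. Each of the 3 overlapped at least 1 changed H3K9ac site. In the windows from 2 to 3 Mb and from 3 to 4 Mb, the sites with the smallest p-value started at 2317918 and 3767440. They were enriched by 1.88 and 1.74 according to the authors' deposited table and overlapped H3K9ac sites as well.

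Only 3 sites of the arm were below input, and their Rbap46 levels were the lowest of the arm. For the site from 33293852 to 33294352 the authors' deposited table lists 2.76 for Rbap46 and 5.01 for input, at FDR 0.00214. Its neighbour from 33238968 to 33239468 is listed in the authors' deposited table at 3.30 and 5.18, with FDR 0.00117. The third, from 10652840 to 10653340, stood at 3.45 and 4.87 (FDR 0.0329) in the authors' deposited table. A pair of neighbours beyond 33 Mb and 1 site far from them thus made up this group, whose input levels were below the arm's median of 5.95. None of the 3 overlapped an H3K9ac site. Among the 8 sites beyond 32 Mb, which include both neighbours, the authors' deposited table gives a median input level of 4.64, and over the 141 sites from 28 to 32 Mb one of 6.22.

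**Figure D3:**
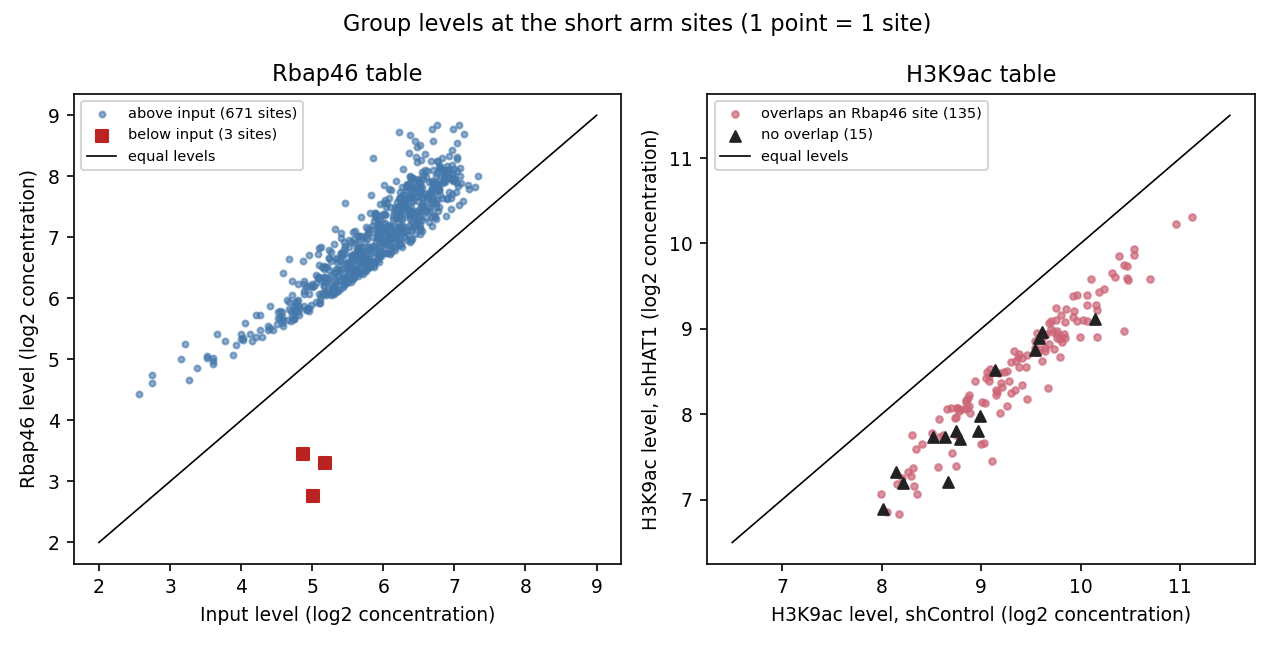
Group levels at each short arm site, as log2 concentrations. Left, Rbap46 against input: 671 sites lie above the line of equal levels and 3 below it; right, shHAT1 against shControl H3K9ac: all 150 sites lie below the line, and the 15 sites without an overlapping Rbap46 site (triangles) are mostly at lower levels.

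H3K9ac was lower in shHAT1 than in shControl cells at all 150 sites of the arm and higher at 0. Over all sites tested, the authors called 18.0% lower and 0.141% higher. How many were tested on the arm was not analysed here, so its counts cannot be read against shares of all tested sites. The 150 sites make up 6.85% of the H3K9ac table, while the arm's 674 sites make up 2.21% of the Rbap46 table. By the authors' deposited table, the median level was 9.36 in shControl and 8.54 in shHAT1 cells. The median difference, shHAT1 minus shControl, was -0.79, a 1.73-fold lower level, with quartiles of -0.95 and -0.69. At FDR under 0.05, 76 sites of the arm were left, against 6.56% of all tested sites, and at FDR under 0.01, 5 were left, against 0.365%. A difference of at least 2-fold was reached by 30 sites, against 3.35% of all tested sites. Within the table, 50.7% of short arm sites, 23.4% of long arm sites and 35.6% of sites on other chromosomes had an FDR under 0.05.

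The largest H3K9ac difference of the arm lay from 8891018 to 8891518, where the level was 9.11 in shControl and 7.45 in shHAT1 cells (FDR 0.0204) in the authors' deposited table. Its neighbour, 49 bp away, from 8891568 to 8892068, stood at 9.99 and 8.91 with the smaller FDR, 0.00391, in the authors' deposited table. An Rbap46 site from 8891491 to 8891991, enriched by 1.79 according to the authors' deposited table, overlapped both. The next largest difference, from 27337939 to 27339166, went from 8.67 in shControl to 7.21 in shHAT1 cells (FDR 0.0265) in the authors' deposited table. That site had no Rbap46 site within 10 kb. The third, from 2204964 to 2205464, combined a high level with a large difference, at 10.44 and 8.98 (FDR 0.00467) in the authors' deposited table.

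By p-value the arm was led by the site from 3073923 to 3074423, which the authors' deposited table lists at 9.19 in shControl and 8.02 in shHAT1 cells, at FDR 0.000414. An Rbap46 site enriched by 1.40 in the authors' deposited table overlapped it. In the tip window it was the site from 188636 to 189136, at 8.99 and 7.98 (FDR 0.0217) in the authors' deposited table. The next 3 sites had the highest concentration over both groups. From 2802519 to 2803495, the level was 11.12 in shControl and 10.31 in shHAT1 cells (FDR 0.0391) in the authors' deposited table. From 2827244 to 2827744, it was 10.96 and 10.23 (FDR 0.0326) in the authors' deposited table, and both sites belonged to the run of 9. From 24550347 to 24551276, it was 10.54 and 9.94 (FDR 0.0391) in the authors' deposited table. By shControl level alone, the third was another site, from 2014155 to 2014655 and named after its values were seen, which the authors' deposited table lists at 10.70 in shControl and 9.59 in shHAT1 cells, with FDR 0.0217.

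The smallest H3K9ac differences that passed the limit lay from 279063 to 279563, from 30968912 to 30969412 and from 2563632 to 2564132. Their shHAT1 minus shControl values were -0.50, -0.52 and -0.54 in the authors' deposited table, at shControl levels of 9.75, 10.10 and 9.92. A site from 4896905 to 4897841 was tied with the third, at -0.54, in the authors' deposited table. Smaller differences were not listed on the arm. With the arm's H3K9ac sites divided by concentration into 4 sets, the shControl minus shHAT1 difference had a median of 0.93 and a minimum of 0.55 in the set with the fewest reads, and 0.76 and 0.50 in that with the most, by the authors' deposited table. For Rbap46 minus input, only the 671 sites above input were divided in this way, so the 3 sites below input are left out. By the authors' deposited table, the set with the fewest reads had a median of 1.09 and a minimum of 0.72. The set with the most had 1.22 and 0.47. The sites nearest inside the FDR limits were the Rbap46 site from 29794722 to 29795222, at 0.0493, and the H3K9ac site from 30366777 to 30367277, at 0.099, both in the authors' deposited tables.

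Both position limits fell inside the 12.8 Mb without a site, and the long arm limit was nearer to a site than the short arm limit. The first Rbap46 and the first H3K9ac site from the tip overlapped, at 103275 to 103775 and 103225 to 103725, with Rbap46 at 6.77 over an input of 6.12 and H3K9ac at 8.71 in shControl and 7.55 in shHAT1 cells, as the authors' deposited tables give them. The last Rbap46 site inside the limit, from 33618860 to 33619360, had levels of 6.99 and 5.95 in the authors' deposited table. The first outside, from 46406033 to 46406533, had levels of 8.78 and 8.18, an input higher than at any short arm site, where the maximum was 7.33 in the authors' deposited table. The last H3K9ac site inside, from 31191340 to 31191840, had levels of 10.47 and 9.60, and the first outside, from 46654896 to 46655396, had 9.19 and 8.27 in the authors' deposited table.

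In size of difference, the short arm was close to the long arm in both tables. The median Rbap46 minus input was 1.08 on either arm and 1.05 on the other chromosomes, with quartiles of 0.87 and 1.27 on the long arm, from the authors' deposited table. Median levels were 6.99 and 5.95 on the short arm and 7.04 and 6.03 on the long arm in the authors' deposited table. The median shHAT1 minus shControl was -0.79 on the short arm, -0.80 on the long arm and -0.77 on the other chromosomes in the authors' deposited table. The quartiles on the long arm were -0.91 and -0.67. The share of H3K9ac sites with at least a 2-fold difference was 20% on the short arm, 15.6% on the long arm and 18.6% elsewhere. Median shControl levels were 9.36, 9.22 and 9.27 in the same order in the authors' deposited table. No test was made of these differences, because sites are not replicates and each table was selected on the contrast in question. On the long arm 4 of 631 Rbap46 sites were below input and 0 of 64 H3K9ac sites were higher in shHAT1 cells.

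**Figure D4:**
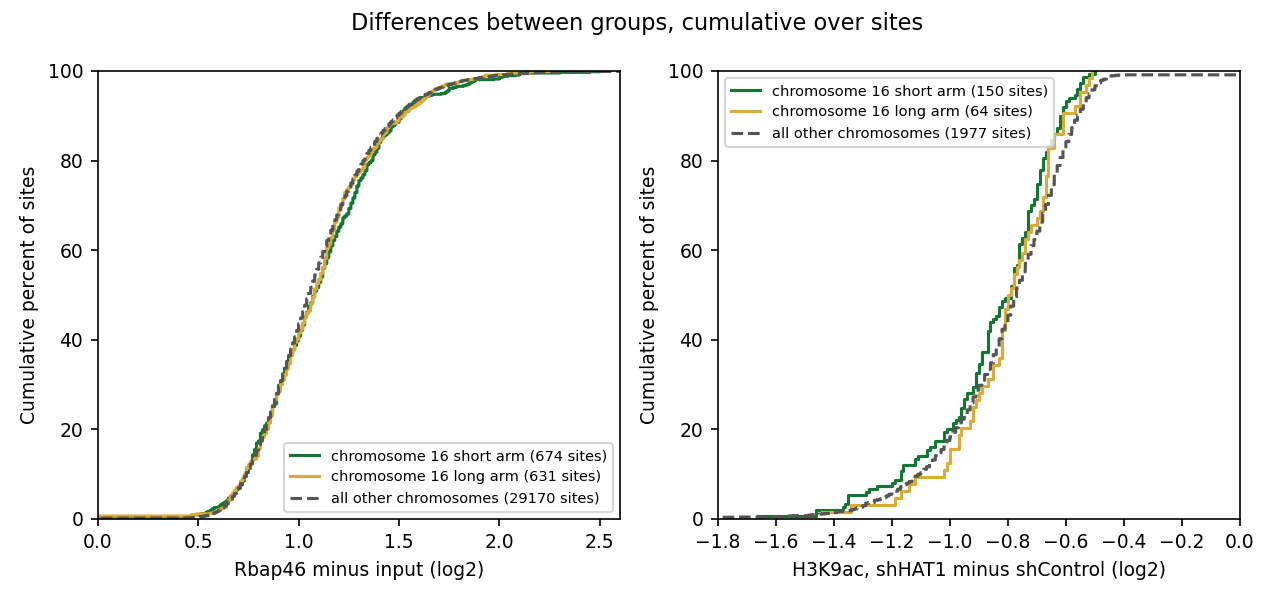
Cumulative percent of sites by the difference between groups on the log2 scale, for Rbap46 minus input (left) and H3K9ac in shHAT1 minus shControl (right), on the short arm, the long arm and all other chromosomes. The curves of the arms nearly coincide, with medians of 1.08 and 1.08 on the left and of -0.79 and -0.80 on the right; sites beyond the axis limits are counted but not drawn.

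Along the arm, medians of the differences were taken over segments of 6 Mb. The median Rbap46 minus input was between 0.98, from 6 to 12 Mb, and 1.12, from 18 to 24 Mb and from 30 to 36 Mb, in the authors' deposited table. The median shHAT1 minus shControl was between -0.97, over 13 sites from 6 to 12 Mb, and -0.71, over 9 sites from 12 to 18 Mb, in the authors' deposited table. The first 6 Mb had medians of 1.09 and -0.79, equal or close to those of the whole arm.

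Most changed H3K9ac sites of the arm overlapped an Rbap46 site above input. With an overlap of at least 1 bp, these were 135 of 150 sites, or 90.0%, on the short arm, 51 of 64, or 79.7%, on the long arm and 75% of 1977 sites on other chromosomes. The density of Rbap46 sites was also higher on the short arm, at 20.1 against 14.4 per Mb, and its part in these rates was not tested. Read from the other side, 127 of the 671 Rbap46 sites above input on the short arm overlapped a changed H3K9ac site, or 18.9%. On the long arm these were 51 of 627, or 8.13%, and on other chromosomes 5.05% of 29127. Within the arm the share was 24.2% in the first 5 Mb, 16.2% from 5 to 28 Mb and 14.9% from 28 to 32 Mb. From 32 to 36 Mb, 0 of 6 sites overlapped. Among the segments of 6 Mb the share was lowest from 30 to 36 Mb, at 9.68% of 93 sites, which include these 6. The median Rbap46 level of that segment in the authors' deposited table was 7.26, the highest of the 6 segments.

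The share on the short arm was above that on other chromosomes in each class of Rbap46 fold. Of short arm sites enriched by under 1 on the log2 scale, 15.2% overlapped a changed H3K9ac site, against 3.98% on the long arm and 3.45% elsewhere. From 1 to 1.5 the shares were 18.1%, 8.85% and 5.28%. From 1.5 to 2 they were 33.8%, 16.7% and 10%. At 2 or more, 5 of 11 short arm sites, 3 of 5 long arm sites and 17.9% of 279 other sites overlapped, so the arms cannot be ordered there. Sites with unchanged H3K9ac are not part of the table used, so these shares do not separate how often H3K9ac is present from how often it changed.

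**Figure D5:**
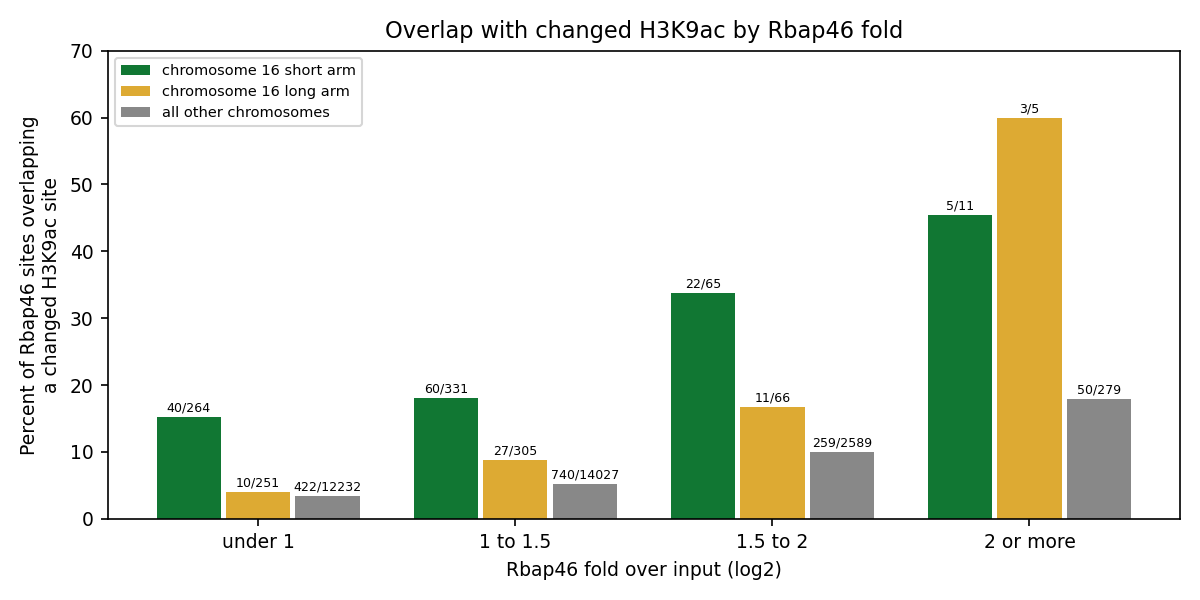
Percent of Rbap46 sites above input that overlap a changed H3K9ac site, by log2 fold of Rbap46 over input, for the short arm, the long arm and all other chromosomes, with counts above each bar. The short arm bars rise from 15.2% to 45.5% and stand above the other bars in the first 3 classes; the last class rests on 11 and 5 sites on the arms.

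Rbap46 sites of the arm that overlapped changed H3K9ac had more reads than those that did not. The median Rbap46 level was 7.74 with overlap and 6.82 without, and the median input level was 6.52 and 5.79, from the authors' deposited table. By the same authors' deposited table, Rbap46 minus input had medians of 1.19 and 1.06. The order was not particular to the arm. Median Rbap46 levels in the authors' deposited table were 7.76 and 6.96 on the long arm and 7.68 and 6.8 on other chromosomes. H3K9ac sites with an Rbap46 site had a median shControl level of 9.41, against 8.79 for the 15 without, and a median shHAT1 minus shControl of -0.78 against -0.95 in the authors' deposited table. At the 135 overlapping sites of the short arm the shControl minus shHAT1 difference had a Spearman correlation of -0.03 with Rbap46 minus input, across sites of the same libraries. Long arm sites gave -0.15 over 51 sites.

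Of the 15 H3K9ac sites of the arm without an Rbap46 site, 9 lay within 1 kb of one, at a median distance over all 15 of 0.379 kb. Only 2 were more than 10 kb away. These were the site from 27337939 to 27339166 described above and the site from 11875950 to 11876894, where H3K9ac was 8.01 in shControl and 6.89 in shHAT1 cells (FDR 0.0712) in the authors' deposited table. The second was chosen after its values were seen, as it lies farthest from an Rbap46 site, at 13.2 kb.

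Some H3K9ac sites of the arm lay close together. There were 20 pairs of successive sites at most 1 kb apart, the closest sharing 1 base, and their differences were apart by a median of 0.18 on the log2 scale. In 5 pairs the gap between the differences was 0.3 or more. The largest, chosen after the values were seen, was at 11836181 to 11836681 and 11836786 to 11837286. The former fell from 9.96 to 9.40 and the latter from 8.18 to 6.83 in the authors' deposited table. In 3 of these 5 pairs the site with the lower shControl level had the larger difference.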

How the data were processed

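ChIP-seq libraries were grouped by their titles into 9 groups, of which 4 groups with 10 libraries enter the authors' 2 comparison tables; the other 14 libraries (HAT1, H4K12ac, H4K5ac) were not analysed here. Per the submitters' processing notes, cutadapt 1.8.1, Bowtie2, SAMtools 1.2, Picard 1.92, MACS2 2.1.0, R 3.3.1, DiffBind and DESeq2 were used for the Rbap46 and input libraries with build hg19. For H3K9ac the same notes name cutadapt, Bowtie2, Picard, SAMtools, MACS2 and DiffBind without versions. Settings and the scaling between libraries are not given in the sources used here. The deposited levels and folds were read as log2 group means and their differences, from their column names as DiffBind output. The headers themselves state no scale. No p-value was recomputed: the deposited p-values and FDR of the authors are, by rank, a Benjamini-Hochberg adjustment over 80831 to 80837 sites for Rbap46 and 12048 to 12049 for H3K9ac; shares of all tested sites use the upper number. The tables hold 37.7% and 18.2% of these.

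Group means allow no fit per library, so the planned test over libraries was replaced by the authors' FDR, at most 0.05 for Rbap46 and under 0.1 for H3K9ac. Windows were counted by site start, and overlap required 1 bp. Sites named are, in each table, the 3 most positive and most negative folds, the 3 smallest p-values, the 3 highest concentrations, any site of the rarer direction, the sites at the limits, and the smallest p-value in the 3 fullest windows. Outside this list are the sites nearest inside the FDR limits, sites that overlap, adjoin or tie with a named site, and the runs described singly. Further sites are said to be chosen later. Members and gene lists were chosen with earlier results of these data known. Counting, overlap and the number of tests were tested on simulated data. The tools were Python 3.11.15, pandas 2.3.3, numpy 2.4.6, matplotlib 3.10.9 and scipy 1.17.1. Depth per library is unknown, which limits the precision that can be stated.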

Additional observations from a re-analysis of the deposited data

How the results depend on the processing

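Of the 42 alternatives that gave a value, 20 left it close to that reported (a count within 1.5 times, a median difference within 0.01, an overlap share within its 95% interval, the same fullest window) and 22 moved it. All but 2 were listed beforehand. The 95% interval of the overlap share treats sites as independent, although some lie close together, so it served only as a working limit. Limits on FDR, fold and concentration remove sites by construction. Rbap46 sites above input on the short arm numbered 671, 407 with at least a 2-fold difference and 391 with neighbours within 10 kb counted once. Above the 25th percentile of concentration, the 3 sites below input fell to 0. On the same arm, H3K9ac sites lower in shHAT1 numbered 150, 76 at FDR under 0.05, 5 at FDR under 0.01 and 30 with at least a 2-fold difference, with 0 higher sites throughout.

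The short arm minus the long arm, in median Rbap46 minus input, was 0 and became 0.05 with at least a 2-fold difference, -0.02 above the 25th percentile of concentration, 0.015 with neighbours counted once and, chosen after seeing the data, 0.03 against all chromosomes but 16. In median shHAT1 minus shControl it was 0.005 and became -0.175 at FDR under 0.01 (5 and 2 sites), -0.04 with at least a 2-fold difference, -0.03 above the 25th percentile of concentration, -0.03 with neighbours counted once, -0.042 by the mean, -0.035 without the first 5 Mb and -0.02 against all chromosomes but 16. The cause was not tested.

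The overlap share of 90.0% became 60.0% when 50% of the H3K9ac site had to be covered, 96.0% with a gap of up to 1 kb and 61.3% with Rbap46 sites of at least 2-fold. The fullest Rbap46 window, with 72 sites at the tip, moved to 3.0 to 3.5 Mb with 41 sites in windows of 500 kb and to 2 to 4 Mb with 120 sites in windows of 2 Mb. No paired analysis was possible because only means over each group are given; leaving out a library was not run for the same reason.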
